A study of Mus musculus with 9 samples.

Results

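The 5 tumour areas of a mouse kidney cancer study are described here as they differ from one another, with areas L4 and R5 on one side and areas R2, R3 and R4 on the other. The 2 sides were chosen by measured values of these same libraries, since L4 and R5 had been seen to carry more fat and urothelial transcripts, so every difference between the sides is a description and no test of it is given. The comparison uses 5 of the 9 libraries of the study, and the 4 libraries of normal cortex serve only as a reference level. All 5 tumour areas were dissected from the renal cortex of Vhl F/F Pbrm1 F/F Ksp-Cre mice on a mixed C57BL/6, BALB/c and 129 background, and the normal areas came from wild-type C57BL/6 kidneys. Mice of both genotypes were on a normal diet and about 1 year old. The 5 tumour libraries share 1 identifying number in their labels and the 4 normal libraries share another, so the areas of a group may all come from 1 animal, and their spread is then a spread between places in its kidneys. The letters L and R are not explained in the labels, and L4 is the only tumour area with the letter L, so that letter and the area cannot be told apart.

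Vhl encodes the subunit of a ubiquitin ligase that marks hypoxia-inducible factors for destruction, and Pbrm1 encodes a subunit of the PBAF chromatin remodelling complex. Both genes are recurrently lost together in human clear cell renal cell carcinoma. The Ksp-Cre transgene is driven by the promoter of Cdh16 (kidney-specific cadherin), which is active in tubular epithelium, so fat cells, muscle and connective tissue cells of these mice are not expected to be targeted by it. The renal cortex borders tissues of other kinds: fat surrounds the kidney and fills its sinus, urothelium lines the calyces and pelvis, smooth muscle lies beneath that urothelium and in artery walls, and a fibrous capsule covers the surface. Each library is a bulk sample, in which fewer cells of a type and less RNA of that type per cell cannot be told apart.

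Levels are given as CPM, the counts of a gene relative to the library total scaled by TMM factors. The tumour libraries held 5246708 to 6645050 counts. The lowest level that can be read with any confidence, 3 counts, corresponds to 0.418 to 0.545 CPM in them. Of 14052 genes in the table, 7364 had a mean of at least 1 CPM over the tumour areas. A gene was called higher when its mean log2 CPM in L4 and R5 exceeded that in R2, R3 and R4 by at least 1 and both L4 and R5 lay above all of the other areas, and lower in the mirrored case. A gene near 0 in R2, R3 and R4 could pass the filter only through L4 and R5, so the counts and medians over list members past the filter describe these members and support no difference. Genes named from outside the naming rule, among them Plin4, Lipe, Pparg, Acta2, Tagln, Myl9, Srf, Fhl1, Sncg, Calb1, Slc12a3, Egf, Cd3e, Mzb1, Cubn and Slc22a6, were taken after their values were seen.

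Every area held tubular transcripts, which belong to the labelled tissue. Cdh16 was measured at 765 CPM in L4 and 956 in R5, against 1016 in R2, 1078 in R3 and 1082 in R4, and at 1112 to 1163 CPM in normal cortex. The targeted gene Vhl was measured at 75.7 CPM in L4 and 67.7 in R5, against 45.1 in R2, 57.6 in R3 and 53.9 in R4, and at 97.7 to 108 CPM in normal cortex. Pbrm1 was measured at 162 CPM in L4 and 151 in R5, against 106 in R2, 131 in R3 and 130.3 in R4, and at 141 to 164 CPM in normal cortex. Vhl and Pbrm1 transcripts thus stood highest in L4 and R5 and lowest in R2, while Cdh16 was lowest in L4. The floxed exons cannot be told from the rest of each gene in these per-gene counts, so this level does not measure recombination.

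The sides differed mainly upward: 265 of the 7364 genes (3.6%) were higher in L4 and R5 and 22 (0.299%) were lower. L4 stood above R5 in 245 of the 265 higher genes, and R5 above L4 in 20. L4 was at least 2-fold above R5 in 130 of them and R5 at least 2-fold above L4 in 0. The median ratio of L4 to R5 was 1.97, and R5 reached a median of 32.5% of the excess that L4 had over R2, R3 and R4. Over all 7364 genes the median log2 difference was 0.02, with the 5th percentile at -0.47 and the 95th at 0.87, and the median SD within a side was 0.17. Only 59 of the higher genes had their lowest value on the upper side at least 2-fold above the highest value on the lower side. The call rule sits in a continuous range: Il27ra, an interleukin receptor subunit, was just inside it (41.7 CPM on average in L4 and R5 against 20.8 in the others, a log2 difference of 1.003), and Dusp10, a MAP kinase phosphatase, was just outside it (15.2 against 7.40 CPM, 0.999).

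L4 rather than the pair was the area farthest from the rest. Between L4 and R4, 897 genes were at least 2-fold apart, and between L4 and R5 325 genes were. R5 differed from R3 by 288 genes and from R4 by 338, so that on this count R5 was closer to R3 than to L4. With a mean of at least 5 CPM required, the same count was 142 between L4 and R5, 104 between R5 and R3, 134 between R5 and R4 and 35 between R3 and R4. The smallest count among tumour pairs at the standard filter was 160, between R3 and R4, and pairs of normal areas gave 142 to 214. The main axis of a principal component analysis of the 5 areas held 59.5% of the variance and placed them in the order L4, R5, R2, R3 and R4, with scores of 0.46, 0.12, -0.12, -0.20 and -0.26 (root mean square log2 CPM per gene). The second axis held 22.3% and separated R2, with a score of 0.31, from the other areas, which scored between -0.12 and 0.01.

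**Figure D1:**
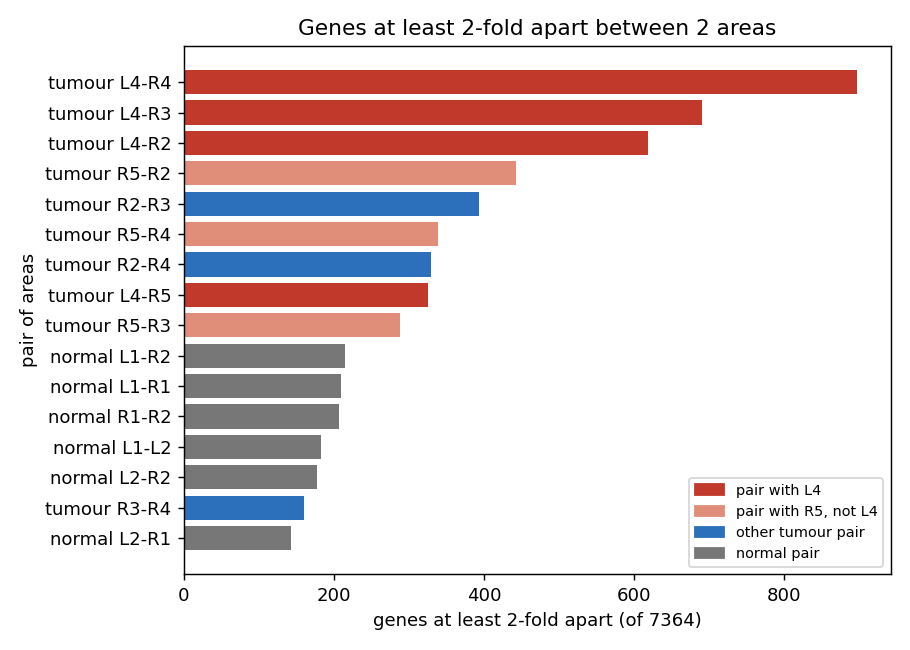
Number of genes, of 7364, at least 2-fold apart in each of the 10 pairs of tumour areas and the 6 pairs of normal areas, as horizontal bars. The 3 longest bars are pairs with L4 (618 to 897 genes), the pair L4 and R5 stands at 325, and the normal pairs stand at 142 to 214.

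Leaving out an area showed the same gradient. Without L4, 154 genes met the call in R5 alone against R2, R3 and R4, and 133 of those were among the 265. Without R5, 496 genes met it in L4 alone, and 256 of the 265 were among them. The genes that stood apart in a single area showed which areas carried features of their own. In L4 alone, 165 genes (2.24%) lay at least 2-fold above the highest of the other tumour areas, and 123 of these were also among the 265. In R5 alone the number was 0 (0%), in R2 4 (0.0543%), in R3 3 (0.0407%) and in R4 1 (0.0136%). At least 2-fold below the lowest of the other areas were 9 genes (0.122%) in L4, 2 (0.0272%) in R5, 83 (1.13%) in R2, 16 (0.217%) in R3 and 24 (0.326%) in R4. The separate features were thus high genes in L4 and low genes in R2.

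Against normal cortex, the mean of L4 and R5 lay above all 4 normal areas for 250 of the 265 higher genes. The mean of R2, R3 and R4 lay above all normal areas for 158 of them, within the normal range for 55 and below it for 52. Among R2, R3 and R4, the highest value was in R2 for 126 of the 265, in R3 for 87 and in R4 for 52. Of the 265 genes, 61 belonged to 1 of the 37 gene lists described next, and 204 to none.

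**Figure D2:**
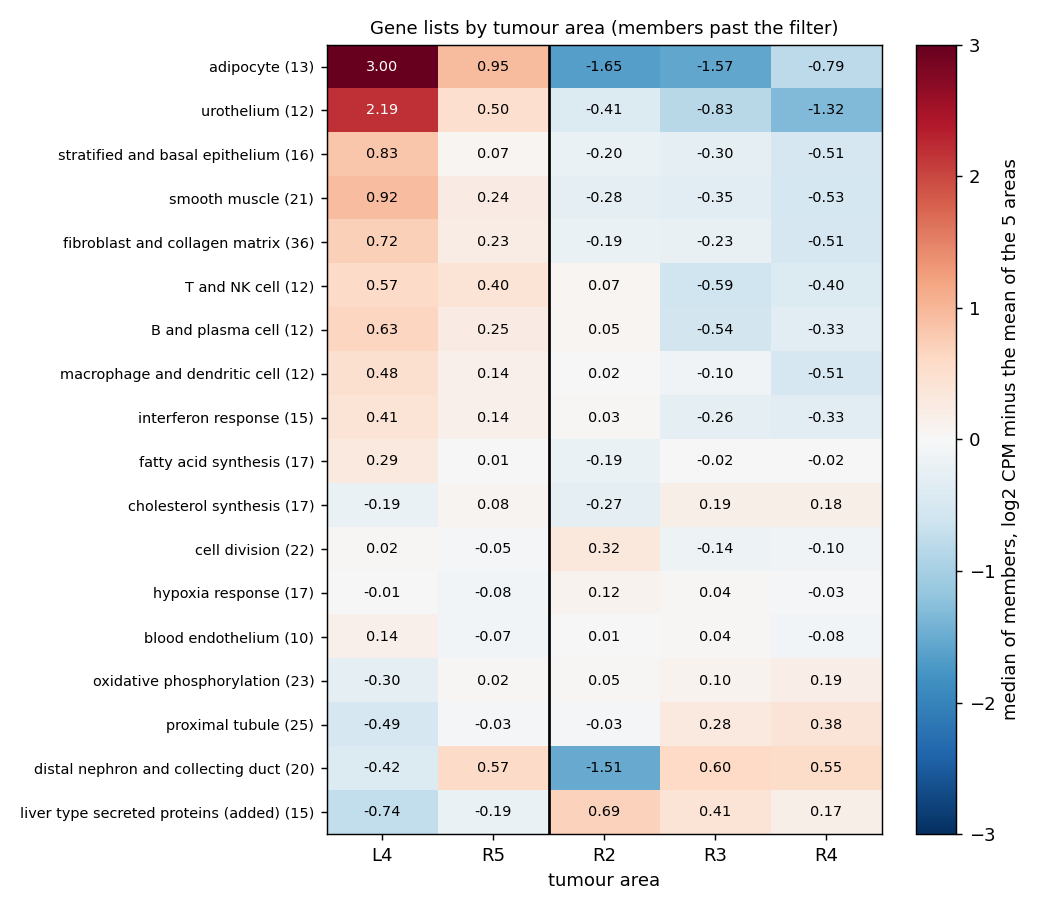
Median over the members of 18 gene lists of log2 CPM minus the mean of the 5 areas, by tumour area, with the number of members past the filter in brackets. The colour runs from 3 below to 3 above the mean. The adipocyte list goes from 3.0 in L4 to -1.65 in R2, and the distal nephron list is lowest in R2 at -1.51.

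Among list members past the filter, fat cell genes gave the widest median difference. Of the 13 adipocyte genes past the filter, 11 were higher and 0 lower in L4 and R5, and the list's median log2 difference was 3.29, beside 0.02 over all genes. The table held 19 members of the list, and with no filter the median was 1.81, below the 1.89 of the urothelium list. With the filter, the adipocyte median was 2.27 without L4 and 4.32 without R5. Ucp1, Cidea and Acvr1c passed the filter through their levels in L4 and R5. Adipoq and Lep, which define the cell type best, were not analysed here. Cfd (adipsin), a complement factor secreted by fat cells, was measured at 456 CPM in L4 and 95.9 in R5, against 1.17 in R2, 1.45 in R3 and 13.7 in R4. Plin1, the coat protein of fat cell lipid droplets, was measured at 139 CPM in L4 and 30.7 in R5, against 0.336 in R2, 1.27 in R3 and 3.19 in R4. Both lay within or below the range of normal cortex in R2 and R3 (0.405 to 3.41 CPM for Cfd and 1.01 to 6.00 CPM for Plin1), and R4 stood above R2 and R3 in both genes. Car3, a carbonic anhydrase abundant in fat, reached 1368 CPM in L4 and 366 in R5, against 79.4 in R2, 34.5 in R3 and 81.0 in R4, with 37.9 to 77.9 CPM in normal cortex. L4 exceeded R5 by 4.75-fold in Cfd, 4.53-fold in Plin1 and 3.74-fold in Car3. Acvr1c, an activin receptor of fat cells, was measured at 20.9 CPM in L4 and 5.94 in R5, against 0 in R2, 0.182 in R3 and 0.581 in R4. Plin4, another droplet coat protein, was measured at 146 CPM in L4 and 34.8 in R5, against 5.2 in R2, 5.81 in R3 and 11.2 in R4, R2 and R3 lying below the normal range of 7.9 to 23.3 CPM and R4 within it. Lipe (hormone-sensitive lipase) at 98.7, 40.5, 13.6, 17.4 and 15.8 CPM in L4, R5, R2, R3 and R4 and Pparg, the regulator of fat cell differentiation, at 26.9, 9.59, 6.71, 4.18 and 4.5 CPM in the same order followed the same division with smaller steps. The members not called were Aqp7, a glycerol channel also found in the proximal tubule, at 62.6, 70.9, 75.8, 77.2 and 71.7 CPM, and Cd36, a fatty acid transporter, at 10.7, 15.2, 8.05, 16.0 and 21.9 CPM. For both of these genes the sides overlapped or ran slightly the other way.

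Ucp1, a gene of brown fat, the heat-producing form, did not follow the L4 to R5 step of Cfd and Plin1. Ucp1, the mitochondrial uncoupling protein that defines brown and beige fat, was measured at 34.1 CPM in L4 and 40.02 in R5, against 0 in R2, 0.182 in R3 and 0.436 in R4, and at 0 to 0.273 CPM in normal cortex. R5 therefore held 117% of the L4 level (95% exact counting interval 98.2 to 140), against 21.0% (19.3 to 22.9) for Cfd and 22.1% (18.9 to 25.7) for Plin1. These intervals cover counting error only and compare 2 libraries. Cidea, a droplet protein abundant in brown fat, was measured at 33.7 CPM in L4 and 20.8 in R5, against 0 in R2, 0.363 in R3 and 0.145 in R4, and R5 held 61.9% (49.8 to 76.6) of the L4 level. This interval overlapped that of Sncg, a synuclein on the adipocyte list, at 45.5% (35.1 to 58.5), and lay above that of Lipe at 41.0% (35.5 to 47.3). In R2, R3 and R4 both genes were at or under the level of 3 counts. Ebf2, a brown fat transcription factor, was measured at 6.12, 1.52, 0.168, 0.363 and 0.29 CPM and Klb, the co-receptor for FGF21, at 5.71, 1.83, 0.168, 0.545 and 0.29 CPM, in the order L4, R5, R2, R3 and R4. These last 2 genes were lower in R5 than in L4, as the other fat cell genes were. A brown fat list was added after these values were seen, and 4 of its 11 members past the filter were higher, with a median of 0.06. Its members shared with tubules, such as Ppargc1a, the mitochondrial coactivator, at 110.2, 136, 149, 166 and 171 CPM, did not divide the areas this way.

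**Figure D3:**
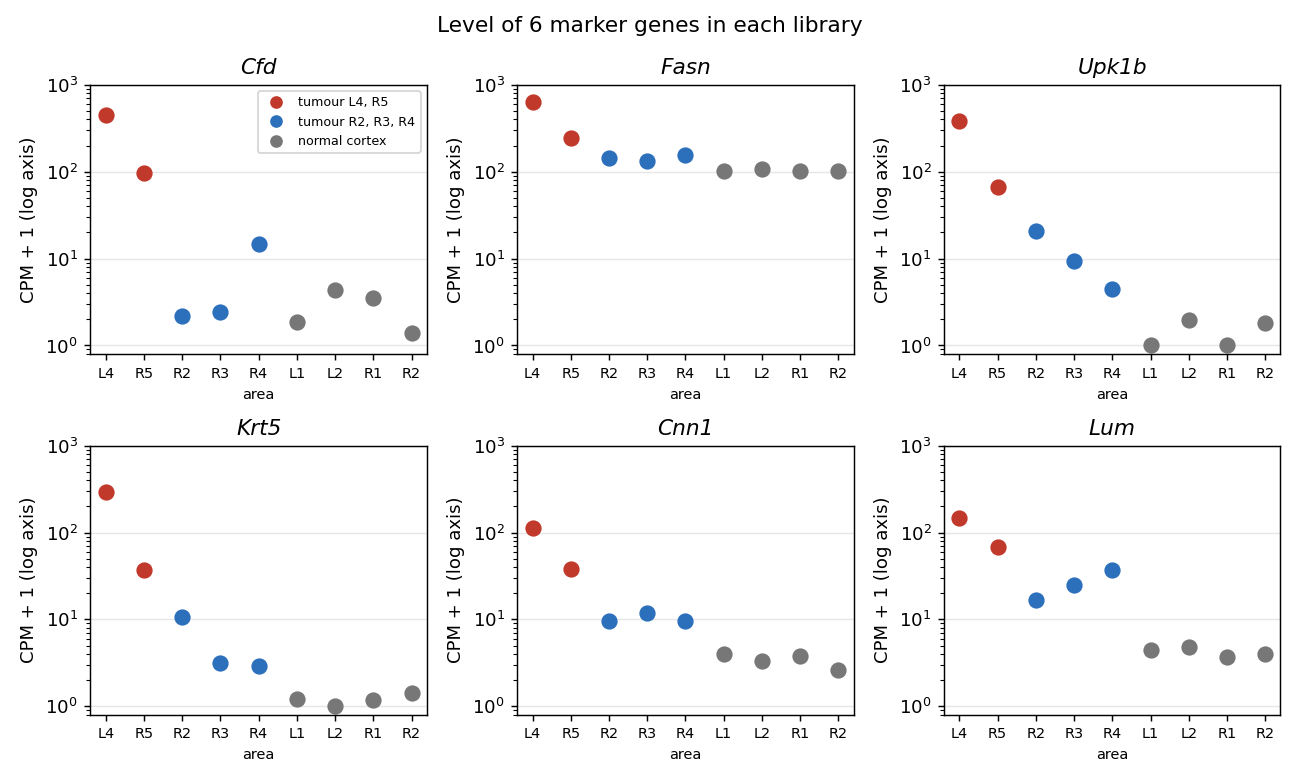
CPM plus 1 on a log axis for 6 marker genes in each of the 9 libraries, as points coloured by tumour side and normal cortex. L4 is the highest library for all 6 genes and R5 the next; Fasn has the smallest step, from 639.8 CPM in L4 and 246 in R5 to between 134 and 157 in R2, R3 and R4.

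Lipid synthesis genes as a whole moved less than the fat cell genes. Of 17 fatty acid synthesis genes past the filter, 3 were higher and 0 lower (beside 3.6% and 0.299% of all genes), with a median of 0.20. In 8 of the 17 both L4 and R5 lay above all other areas (as in 23.1% of all genes). In 1 both lay below all others (as in 18.2% of all genes). Fasn, the fatty acid synthase, was measured at 639.8 CPM in L4 and 246 in R5, against 142 in R2, 134 in R3 and 157 in R4, with 100.2 to 106 CPM in normal cortex. Pnpla3, a lipid droplet hydrolase, was measured at 40.4 CPM in L4 and 16.6 in R5, against 6.71 in R2, 6.72 in R3 and 5.66 in R4, and Acaca, the rate-limiting carboxylase of the pathway, at 6.54 CPM in L4 and 3.04 in R5, against 2.18 in R2, 2.18 in R3 and 1.74 in R4. All 3 had L4 more than 2-fold above R5. Fat cells also make these enzymes, and the adipocyte list, with 11 of its 13 genes higher, summed to 2430.5 CPM in L4, 745 in R5, 167 to 231 in R2, R3 and R4 and 169 to 234 in normal cortex; its part in the levels of Fasn, Pnpla3 and Acaca was not tested. Scd1, the stearoyl-CoA desaturase, was measured at 7085 CPM in L4 and 3059 in R5, against 3702 in R2, 4347 in R3 and 3889 in R4, so L4 stood alone and R5 was the lowest area. Of 17 cholesterol synthesis genes 0 were called in either direction, near the share over all genes (3.6% higher and 0.299% lower). Their median was -0.09 and became 0.0014 when scaled by library size alone.

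The urothelium list was higher in most members, with 9 of 12 past the filter called higher, 0 lower and a median log2 difference of 2.24. In 1 of the 12 both L4 and R5 lay below all other areas (as in 18.2% of all genes). The median was 1.39 without L4 and 3.08 without R5. Uroplakins are the membrane plaque proteins of the umbrella cells that face the urine. Upk1b was measured at 379.7 CPM in L4 and 66.0 in R5, against 19.6 in R2, 8.35 in R3 and 3.49 in R4. Upk1a was measured at 234 CPM in L4 and 54.2 in R5, against 14.1 in R2, 7.44 in R3 and 4.21 in R4, and Upk3a at 103 CPM in L4 and 19.5 in R5, against 6.21 in R2, 2.72 in R3 and 1.6 in R4. Upk2, the partner of Upk1a, was measured at 53.2 CPM in L4 and 11.9 in R5, against 2.35 in R2, 1.09 in R3 and 0.871 in R4. The order L4, R5, R2, R3 and R4 held in all 4 of these genes and in 7 of the 9 called. Normal cortex held 0 to 0.955 CPM of Upk1b and 0.166 to 2.38 CPM of Upk1a, so R4 was the tumour area nearest to it. Grhl3, a transcription factor of umbrella cell differentiation, was measured at 26.9, 6.09, 2.85, 1.45 and 0.726 CPM in the same order of areas. The members not called, Elf3, Tmprss2 and Krt8, are all present in normal cortex too. So is Gata3, which was called, at 52.4 to 55.9 CPM in normal cortex. Krt8, a simple epithelial keratin, was measured at 352, 265, 295, 276 and 242 CPM with 94.7 to 98.2 CPM in normal cortex, and its partner Krt18, which was called, at 153, 53.6, 21.1, 34.9 and 23.4 CPM. Upk3b, a uroplakin placed here in the mesothelium list, was measured at 143, 46.1, 48.7, 38.1 and 27.2 CPM. For this uroplakin R5 lay within the range of the lower side. Of 6 mesothelium genes past the filter 0 were called, near the share over all genes (3.6% higher and 0.299% lower). In 5 of the 6 the mean was higher in L4 and R5, and the list's median log2 difference was 0.72.

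Basal and stratified epithelium genes were highest in L4 in 11 of the 16 members past the filter, as urothelium genes were in 11 of 12. Over all genes, L4 was the highest area in 2384 of 7364. In 1 of the 16 both L4 and R5 lay below all other areas (as in 18.2% of all genes). Of 16 members past the filter, 4 were higher and 0 lower, and the median log2 difference was 0.67 (0.31 without L4 and 1.09 without R5). Krt5, the keratin of basal cells, was measured at 294 CPM in L4 and 35.8 in R5, against 9.57 in R2, 2.18 in R3 and 1.89 in R4. Trim29, a keratin-binding protein of basal cells, was measured at 38.1 CPM in L4 and 5.78 in R5, against 1.51 in R2, 0.182 in R3 and 0.436 in R4, and Col17a1, a hemidesmosome collagen, at 48.0 CPM in L4 and 8.83 in R5, against 2.85 in R2, 3.09 in R3 and 1.89 in R4. R5 held 12.2% of the L4 level of Krt5 (10.6 to 13.9), a smaller part than for Upk1a, of which it held 23.1% (20.6 to 25.9). Other genes of these lists overlapped. R5 held 15.2% of the L4 level of Trim29 (10.5 to 21.3) and 18.4% of that of Col17a1 (13.7 to 24.3). The parts were 17.4% for Upk1b (15.7 to 19.3) and 18.9% for Upk3a (15.6 to 22.9). Krt15, another basal keratin, was measured at 12.9, 1.07, 2.18, 0 and 0 CPM, and R2 stood above R5. Normal cortex held 0 to 0.405 CPM of Krt5 and 0 of Trim29 in each library. The genes with the widest lead in L4 over all other tumour areas were Syt16 at 10.7, 0.609, 0.336, 0.363 and 0 CPM, Anxa8 at 10.6, 0.913, 0.671, 0.182 and 0.29 CPM, Tmprss13 at 31.3, 3.5, 2.35, 0.363 and 0.436 CPM and Krt5. Syt16 belongs to the synaptotagmins, Anxa8 is a calcium-binding annexin and Tmprss13 is a membrane serine protease.

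**Figure D4:**
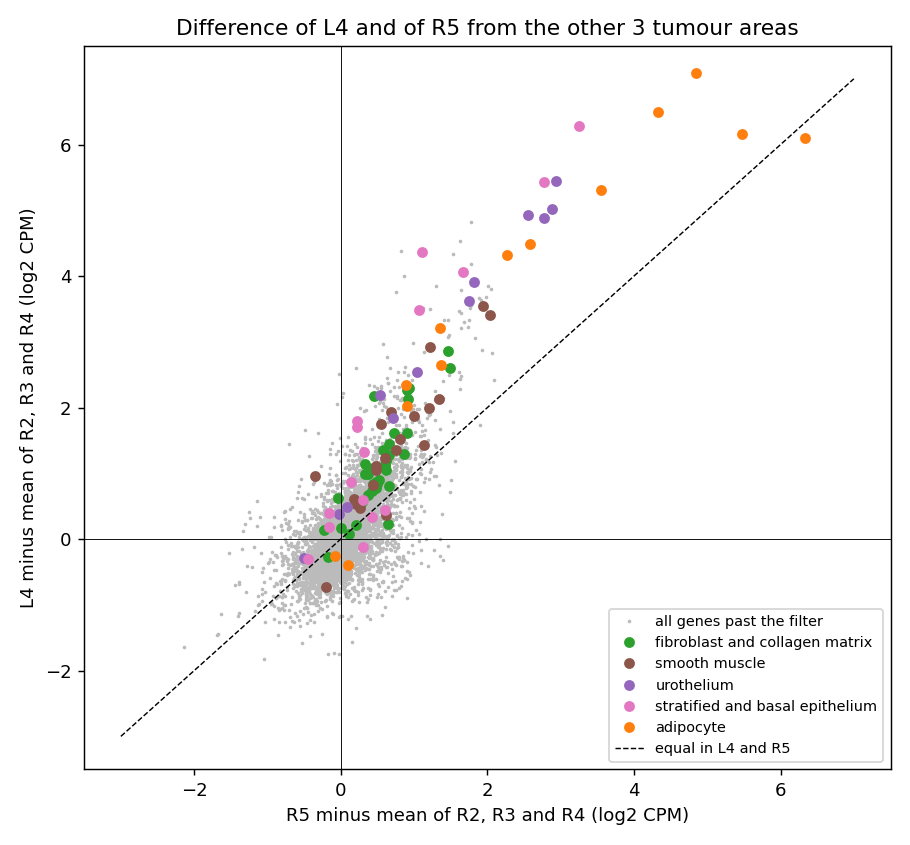
Log2 CPM of L4 (vertical) and of R5 (horizontal) minus the mean of R2, R3 and R4 for the 7364 genes, with 5 gene lists coloured and a dashed line where both areas are equal. Most coloured points lie above the line, since L4 exceeds R5; Ucp1 is the one adipocyte gene called higher that lies below the line.

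Smooth muscle genes were higher in L4 and R5 with a smaller step between the pair. Of 21 members past the filter, 11 were higher and 0 lower, 20 had a higher mean, and the median log2 difference was 1.06 (0.62 without L4 and 1.35 without R5). Cnn1 (calponin), an actin-binding protein of mature smooth muscle, was measured at 111 CPM in L4 and 36.5 in R5, against 8.56 in R2, 10.9 in R3 and 8.57 in R4. Actg2, the actin of visceral muscle, was measured at 6.4 CPM in L4 and 2.28 in R5, against 0 in R2, 0.545 in R3 and 0.581 in R4, and Pgm5, an adhesion protein of muscle, at 33.7 CPM in L4 and 10.04 in R5, against 4.36 in R2, 4.9 in R3 and 3.34 in R4. Myh11, the smooth muscle myosin heavy chain, was measured at 71.0 CPM in L4 and 41.2 in R5, against 17.8 in R2, 14.7 in R3 and 21.1 in R4, with 16.9 to 22.3 CPM in normal cortex. R2 and R4 thus lay within the normal range of Myh11 and R3 just below it, whereas Acta2, the smooth muscle actin that myofibroblasts also make, was 669, 366, 205, 204 and 148 CPM in L4, R5, R2, R3 and R4 and 41.7 to 59.3 CPM in normal cortex. Tagln (transgelin) was measured at 840.2 CPM in L4 and 511 in R5, against 350.0 in R2, 317 in R3 and 223 in R4. Myl9, a regulatory myosin light chain, was measured at 260.0 CPM in L4 and 172 in R5, against 114 in R2, 111 in R3 and 82.3 in R4. R5 held 66.0% of the L4 level of Myl9 (61.2 to 71.1) and 32.8% of that of Cnn1 (28.3 to 37.9), so the step from L4 to R5 differed between genes of this one list by more than the counting error.

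Many smooth muscle genes carry the CArG box, the element bound by serum response factor, in their promoters. It was searched as CC, then A or T in the next 6 positions, then GG; the pattern is its own reverse complement, so 1 search covers both strands. In the RefSeq promoter table (GRCm38.p6), restricted to the 250 bases before each start site, it was found in 482 of 32851 windows (1.47%). Counted by gene, 439 of 27025 (1.62%) held a box. Of the 11 smooth muscle genes called higher, 8 had a window and 1 of them, Myl9, held a box. Of the 16 smooth muscle genes past the filter with a window, called or not, 3 (18.8%) held one: Myl9, Srf and Fhl1. The Fhl1 window was not matched to a transcript start, so its box may not lie in a promoter. Fhl1, a LIM domain protein of muscle, was not called, at 2.64, 3.96, 4.03, 3.99 and 6.1 CPM in L4, R5, R2, R3 and R4. Srf, which encodes serum response factor and was not called (121, 105, 87.4, 86.8 and 87.9 CPM in L4, R5, R2, R3 and R4), held 2 boxes in its own promoter. The 2 stretches are shown because they place the element in a called gene and in the gene of the factor that reads it; the capitals mark the boxes, and both are written 5′ to 3′ on the strand of the gene.
Myl9, chr2:156775263-156775402, plus strand: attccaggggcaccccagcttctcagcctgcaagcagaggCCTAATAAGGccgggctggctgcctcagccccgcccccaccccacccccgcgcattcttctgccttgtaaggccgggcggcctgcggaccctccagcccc
Srf, chr17:46556163-46556284, minus strand: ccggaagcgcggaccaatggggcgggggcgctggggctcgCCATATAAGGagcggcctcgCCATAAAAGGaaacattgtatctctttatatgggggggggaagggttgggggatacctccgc
The box of Myl9 begins 161 bases before the start site and the first box of Srf 82 bases before it. A match describes these letters and was not compared with any binding data.

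Connective tissue genes differed by small amounts in most members. Of 36 fibroblast and collagen matrix genes past the filter, 9 were higher and 0 lower, 34 had a higher mean, in 28 both L4 and R5 lay above all other areas (as in 23.1% of all genes), and the median log2 difference was 0.72 (0.49 without L4 and 0.99 without R5). Lum (lumican), a collagen-binding proteoglycan, was measured at 146 CPM in L4 and 67.9 in R5, against 15.6 in R2, 24.1 in R3 and 36.4 in R4, with 2.66 to 3.82 CPM in normal cortex. Among the lower side, R4 held the most Lum, unlike the uroplakins. Postn (periostin), a matrix protein of activated fibroblasts, was measured at 40.5 CPM in L4 and 15.2 in R5, against 5.37 in R2, 6.35 in R3 and 4.36 in R4. Eln, the elastin of artery walls, was measured at 20.05 CPM in L4 and 7.61 in R5, against 3.69 in R2, 4.18 in R3 and 3.63 in R4, and Scara5, a ferritin receptor, at 36.2 CPM in L4 and 13.8 in R5, against 6.04 in R2, 6.17 in R3 and 10.2 in R4. Dcn (decorin) was measured at 1025 CPM in L4 and 592 in R5, against 411 in R2, 371 in R3 and 344 in R4. Col1a1, the main fibrillar collagen chain, was measured at 969.5 CPM in L4 and 719.8 in R5, against 432 in R2, 497 in R3 and 289 in R4, and R5 held 74.2% of the L4 level (71.5 to 77.0). All 5 tumour areas were above normal cortex in Col1a1 (52.9 to 68.4 CPM). Lyve1, a hyaluronan receptor of lymphatic vessels and some macrophages, was measured at 37.3 CPM in L4 and 11.9 in R5, against 5.54 in R2, 3.27 in R3 and 3.63 in R4. Blood endothelium genes had a median log2 difference of 0.05, beside 0.02 over all genes, and it became -0.06 without L4. Of 10 past the filter 0 were called, near the share over all genes (3.6% higher and 0.299% lower), so this count says little about them. In the table, 6 adrenal gland and 14 skeletal muscle genes were listed, of which 0 and 1 passed the filter.

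**Figure D5:**
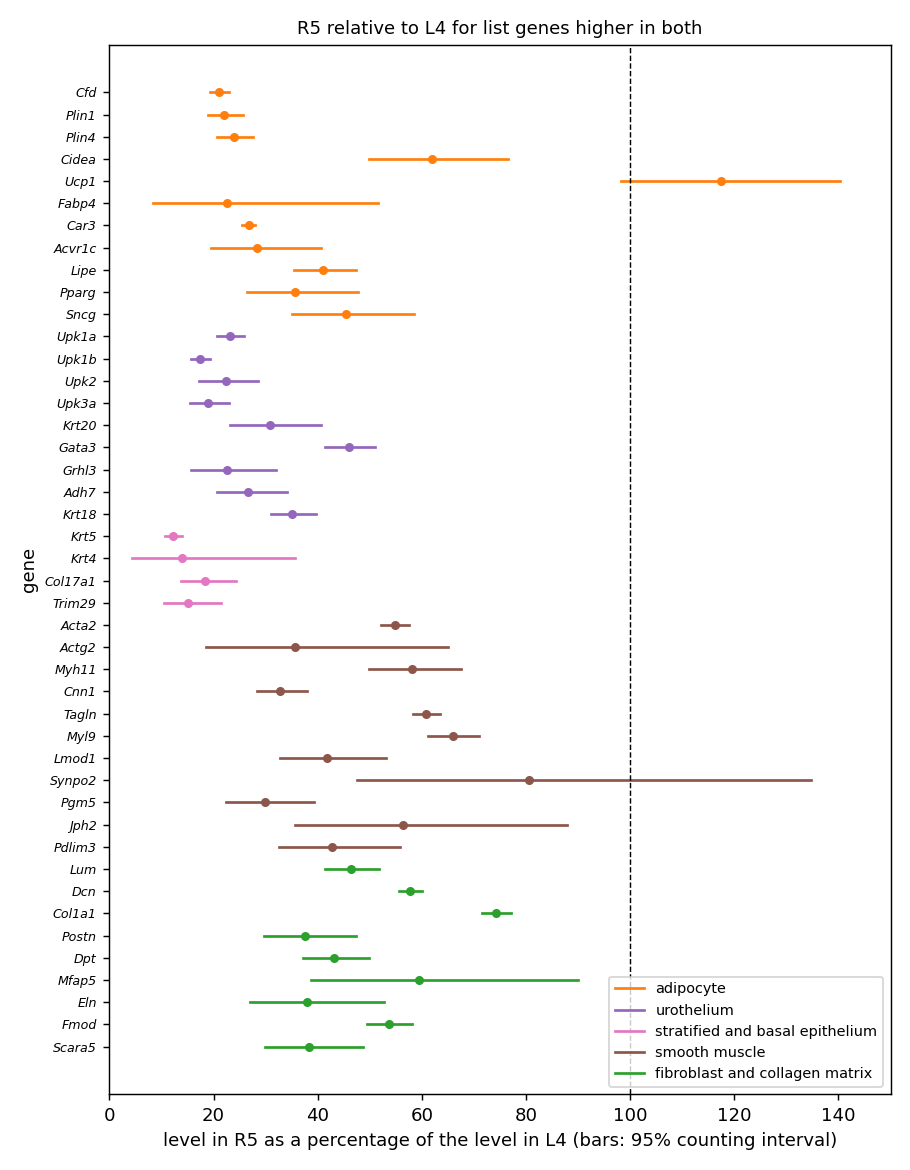
Level in R5 as a percentage of the level in L4 for the genes of 5 lists that were higher in both, as points with 95% counting intervals and a dashed line at 100%. Krt5, of the basal epithelium list, sits lowest at 12.2%, Ucp1 is highest at 117%, and smooth muscle and matrix genes spread up to 80.6%, for Synpo2.

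Lymphocyte genes were higher by less than 2-fold in nearly every member, and R2 often lay close to R5. All 12 T and NK cell genes and all 12 B and plasma cell genes past the filter had a higher mean in L4 and R5. Of them 1 and 2 were called higher (beside 3.6% of all genes). In 10 and 11 both L4 and R5 lay above all other areas (as in 23.1% of all genes). The median log2 differences were 0.77 and 0.80. Cd3d, a subunit of the T cell receptor complex, was measured at 7.93 CPM in L4 and 9.13 in R5, against 6.38 in R2, 2.54 in R3 and 3.19 in R4, and Cd3e, its partner, at 102 CPM in L4 and 84.8 in R5, against 63.9 in R2, 40.3 in R3 and 42.7 in R4. Mzb1, a chaperone of plasma cells, was measured at 751 CPM in L4 and 539 in R5, against 512 in R2, 276 in R3 and 363 in R4. Ms4a1, which encodes the B cell antigen CD20, was measured at 48.0 CPM in L4 and 28.0 in R5, against 20.5 in R2, 16.7 in R3 and 14.4 in R4, and Sdc1 (syndecan), a plasma cell antigen that epithelia also make, at 75.0 CPM in L4 and 29.98 in R5, against 26.5 in R2, 19.6 in R3 and 17.4 in R4. R2 was next after R5 in Cd3e, Mzb1 and Ms4a1. All 5 areas stood above normal cortex, where Cd3e was at 2.33 to 4.36 CPM and Mzb1 at 2.02 to 3.82 CPM. Macrophage and dendritic cell genes had a median of 0.54, with 2 of 12 called higher (beside 3.6% of all genes). Lyz1, a lysozyme, was measured at 26.2 CPM in L4 and 9.13 in R5, against 4.2 in R2, 5.99 in R3 and 4.5 in R4. Itgam, the integrin of myeloid cells, was measured at 3.48 CPM in L4 and 4.11 in R5, against 1.01 in R2, 2.18 in R3 and 2.03 in R4. Of 15 interferon response genes 2 were called higher (beside 3.6% of all genes). Among them was Ifi27l2a at 119.7 CPM in L4 and 57.5 in R5, against 32.7 in R2, 31.6 in R3 and 22.9 in R4.

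Tubular genes were lower by less than 2-fold or divided the areas in another way. Of 25 proximal tubule genes past the filter, 0 were called, near the share over all genes (3.6% higher and 0.299% lower). In 12 both L4 and R5 lay below all other areas (as in 18.2% of all genes). The median log2 difference was -0.45 (-0.16 without L4). Lrp2 (megalin), the endocytic receptor of the proximal tubule, was measured at 2079 CPM in L4 and 3296 in R5, against 3621 in R2, 4208 in R3 and 4709 in R4, with 7624 to 7931 CPM in normal cortex. Cubn (cubilin), its partner, was measured at 474 CPM in L4 and 714 in R5, against 921 in R2, 967 in R3 and 1061 in R4. L4 was the lowest area and R4 the highest in both, the reverse of the uroplakin order. The summed CPM of the proximal tubule list was 35622 in L4, 53149 in R5, 47091 in R2, 61730 in R3 and 64033 in R4, and 83307 to 84721 in normal cortex. The list also holds Umod, a member of the distal nephron list, so this sum is not one of proximal tubule genes alone. Umod was measured at 2460 CPM in L4, 3542 in R5, 1220 in R2, 5306 in R3 and 3725 in R4, and at 5062 to 5990 CPM in normal cortex. The smooth muscle list summed to 4044 CPM in L4, 2617 in R5 and 1450.4 to 1853 in R2, R3 and R4, and the fibroblast and collagen matrix list to 7067, 5271 and 3243 to 3925 CPM; the part of these lists in the lower tubular levels of L4 was not tested. Of 23 oxidative phosphorylation genes 0 were called, near the share over all genes (3.6% higher and 0.299% lower). All 23 had a lower mean in L4 and R5, and the share of all genes with a lower mean is not given here. In 9 both L4 and R5 lay below all other areas (as in 18.2% of all genes). The median was -0.26 (-0.10 without L4 and -0.43 without R5), beside 0.02 over all genes. Cell division genes had a median of -0.02 and hypoxia response genes one of -0.07. Of them 0 of 22 and 1 of 17 were called, near the share over all genes (3.6% higher and 0.299% lower). Both medians turned slightly positive, to 0.073 and 0.023, when scaled by library size alone. Mki67, a marker of dividing cells, was measured at 61.8, 54.9, 66.1, 43.2 and 42.3 CPM in L4, R5, R2, R3 and R4, and R2 held the most.

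The distal nephron set R2 apart from all other areas. Each of the 20 distal nephron and collecting duct genes past the filter was lowest in R2, and in 11 of them R2 was at least 2-fold below the next lowest area (as in 1.13% of all genes). R2 was also lowest in 11 of 17 cholesterol synthesis, 9 of 13 adipocyte, 8 of 17 fatty acid synthesis and 10 of 25 proximal tubule genes. The share of all genes that were lowest in R2 is not given here. Calb1, the calcium-binding protein of the distal convoluted tubule, was measured at 331 CPM in L4 and 944 in R5, against 161 in R2, 880.1 in R3 and 917 in R4, with 3112 to 3689 CPM in normal cortex. Slc12a3, the thiazide-sensitive cotransporter, was measured at 186 CPM in L4 and 516 in R5, against 77.0 in R2, 394 in R3 and 456 in R4. Egf, made in the thick ascending limb and distal convoluted tubule, was measured at 499 CPM in L4 and 1046 in R5, against 209.6 in R2, 1138 in R3 and 1165 in R4. L4 was the second lowest area in these 3 genes and R5 stood with R3 and R4, so the 2 sides crossed. The list's median log2 difference of 0.17 accordingly changed sign with the area left out, from 0.72 without L4 to -0.36 without R5 and -0.46 without R2. Scnn1g, a subunit of the epithelial sodium channel, was measured at 31.5 CPM in L4 and 42.5 in R5, against 8.89 in R2, 43.8 in R3 and 39.5 in R4, and Slc22a6, an organic anion carrier of the proximal tubule, at 569 CPM in L4 and 1241 in R5, against 288 in R2, 1089.8 in R3 and 1311 in R4. Both were also lowest in R2. The only 2 members called higher, Aqp3 and Gata3, are shared with urothelium. Aqp3, a water channel, was measured at 112 CPM in L4 and 46.6 in R5, against 9.4 in R2, 40.7 in R3 and 42.3 in R4, below the 207 to 233 CPM of normal cortex. Gata3, a transcription factor of collecting duct and urothelium, was measured at 167 CPM in L4 and 76.7 in R5, against 31.7 in R2, 62.8 in R3 and 50.5 in R4, with 52.4 to 55.9 CPM in normal cortex.

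Few genes were lower in L4 and R5, and most were low in level. Of the 22 genes, 0 belonged to the 37 gene lists, and 7 had a mean of at least 10 CPM on the higher side. The share of all genes that belong to these lists is not given here, so the 0 is a count only. F2 (prothrombin), a clotting factor made mainly by the liver, was measured at 7.66 CPM in L4 and 5.33 in R5, against 33.9 in R2, 21.8 in R3 and 20.04 in R4, and at 0.81 to 1.33 CPM in normal cortex. Slc26a9, a chloride transporter, was measured at 8.77 CPM in L4 and 7.46 in R5, against 31.9 in R2, 21.8 in R3 and 21.9 in R4, and at 0 to 0.216 CPM in normal cortex. Igfbp1, a secreted binding protein for insulin-like growth factors, was measured at 242 CPM in L4 and 174 in R5, against 592 in R2, 361 in R3 and 357 in R4, and at 1.16 to 3.0 CPM in normal cortex. In these 3 genes the normal cortex was far below every tumour area, and R2 held the most. Elavl3, an RNA-binding protein known from neurons, was measured at 16.3 CPM in L4 and 19.0 in R5, against 52.0 in R2, 35.2 in R3 and 33.4 in R4. Syne2, a nuclear envelope protein, was measured at 13.4 CPM in L4 and 18.1 in R5, against 35.9 in R2, 25.6 in R3 and 37.8 in R4 and Myo6, a motor protein of brush border endocytosis, at 3.9 CPM in L4 and 6.24 in R5, against 10.4 in R2, 9.44 in R3 and 11.2 in R4. In contrast to F2, these last 2 genes lay below normal cortex in all tumour areas (129 to 151 CPM for Syne2 and 25.7 to 29.3 CPM for Myo6). Over the 22 genes, the mean of R2, R3 and R4 lay above all normal areas for 12, within their range for 2 and below it for 8.

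Because F2 and Igfbp1 were among the lower genes, a list of liver type secreted proteins was added after the values were seen. Of its 15 members past the filter, 6 were lower and 1 higher (beside 0.299% and 3.6% of all genes), with a median log2 difference of -0.87. The 6 include F2 and Igfbp1, which prompted the list, so this count supports no difference. Besides F2 and Igfbp1, the lower members included Apoc3 at 2.92, 2.74, 10.6, 3.99 and 6.68 CPM, Plg at 0.557, 0.761, 2.18, 1.45 and 1.6 CPM and Fgb at 0.418, 0.304, 2.52, 1.45 and 1.31 CPM in L4, R5, R2, R3 and R4; they encode an apolipoprotein, plasminogen and a fibrinogen chain. Plg and Fgb rest on few counts. Ttr (transthyretin), a thyroid hormone carrier, was measured at 146 CPM in L4 and 258 in R5, against 379 in R2, 306 in R3 and 348 in R4, with 30.1 to 42.3 CPM in normal cortex. The exception was Apoc1, another apolipoprotein that macrophages also make, at 9.33 CPM in L4 and 2.74 in R5, against 1.51 in R2, 1.82 in R3 and 1.16 in R4. Alb, the defining product of hepatocytes, was 1.67, 2.43, 0.336, 2.18 and 3.19 CPM in the same order and 3.68 to 4.77 CPM in normal cortex, so it did not share this division.

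Genes that stood high in a single area other than L4 were few. In R5 no gene lay at least 2-fold above the other areas, and the widest lead was that of Myl6b, a myosin light chain, at 6.96, 14.6, 8.73, 8.9 and 7.84 CPM in L4, R5, R2, R3 and R4. In R2 the widest leads were those of Mucl3, a mucin-like protein, at 6.26, 4.72, 16.9, 4.9 and 2.76 CPM, Vstm2b at 10.3, 7.15, 19.0, 9.8 and 10.2 CPM and Pbk, a mitotic kinase, at 8.63, 9.28, 17.3, 9.26 and 10.02 CPM. In R3 the widest leads were those of Egfl6, a secreted matrix protein, at 20.3, 28.3, 9.57, 52.8 and 31.5 CPM, and Bcat1, an amino acid transaminase, at 12.8, 18.4, 16.6, 33.6 and 20.2 CPM. In R4 Sdk2, a cell adhesion molecule, was lowest at 15.5, 16.9, 16.1, 16.3 and 4.5 CPM, with 14.9 to 19.1 CPM in normal cortex. R5 had 0 genes high alone and 2 low alone, the fewest in both directions. Few were high alone in R2, R3 and R4 too (4, 3 and 1), so lacking high genes of its own did not set R5 apart from them.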

How the data were processed

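RNA was measured by poly(A)-selected bulk RNA sequencing in 5 tumour areas and 4 normal areas. The deposited table holds read counts per gene, not normalized; STAR 2.3, HTSeq, edgeR and the mouse build mm9 are named, without roles, in the submitters' processing notes. No source used here gives the annotation or the strand setting of the counting, so overlapping and antisense genes cannot be told apart. Of 14052 gene identifiers, 14026 were matched to symbols, and 3989 genes had 0 counts in all 9 libraries. No library pair held identical counts.

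Counts were scaled with edgeR 4.0.16 (R 4.3.3) by TMM factors from 7020 genes past edgeR's expression filter, which were 1.04 to 1.17 in tumour areas and 0.890 to 0.899 in normal areas. Log2 CPM used a prior count of 2, and genes needed a mean of at least 1 CPM over the tumour areas. No test was made between the sides, because they were chosen from these values; the members and the gene lists were chosen with earlier results of these data known, and 2 lists were added after the values were seen. The scaling and the call were tested on simulated counts with known changes. Genes named were the 6 markers, up to 12 called genes with the widest difference in each direction (at least 10 CPM on the higher side), up to 4 per list and direction (at least 2 CPM), for each area the 4 highest above and 3 lowest below the others, list members needed to state that they were not called, and Vhl, Pbrm1 and Cdh16; other names were added after their values were seen. Some genes that the rule names are not reported here. Intervals are exact Clopper-Pearson intervals at 95% and cover counting error only, since reads were not counted by molecule. Other scalings, prior counts, filters, folds and the removal of each area were tried.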

Additional observations from a re-analysis of the deposited data

Results flagged for a closer look

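In each group of 4 normal or 5 tumour libraries, the highest or lowest library was compared with the others by the gap to its neighbour over the whole range (Dixon's criterion). This singled out 16 of 250 groups of gene values and 4 of 70 groups of list sums, and chance alone gives about 1 in 20 for groups not chosen by their values.

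The tumour groups below were chosen by their values, so the chance rate does not apply to them. Among tumour areas, L4 stood apart at 29.9 CPM for Itgb4, an integrin of basal epithelium, at 1936 CPM for the summed urothelium list and at 1203 CPM for the summed basal and stratified epithelium list; these belong to the values that set L4 and R5 apart from the other areas, and restate that choice. The next 6 genes were named because 1 area stood widest from the others in them, so this criterion restates that choice too. R5 was singled out at 28.6 CPM for Luc7l3, a splicing factor (high), and at 12.5 CPM for Rprd1a (low). R2 was singled out at 17.3 CPM for Pbk (high) and 8.89 CPM for Scnn1g (low). R4 was singled out at 24.0 CPM for Ep400 (high) and 4.50 CPM for Sdk2 (low).

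Among normal areas, single libraries stood apart at values near or under 3 counts for Upk3a (0.409 CPM in L2), Col17a1 (0.166 in R1), Actg2 (0.273 in L2), Apoc3 (0.202 in R2), Klb (0.332 in R1) and Upk3b (0.166 in R1, low). The others were Agmat at 1.66 CPM in R1 (low), Cd36 at 32.0 CPM in R2 (high), Egf at 2882 CPM in L1 (high), the summed Schwann cell and nerve list at 38.1 CPM in L1 (high) and the summed immediate early gene list at 375 CPM in R2 (low).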

How the results depend on the processing

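No paired analysis was possible because the results come from no test. No gene called higher or lower and named in the report changed its sign under any of the scalings or prior counts. Removing an area could not change the sign of a called gene. The call already requires both L4 and R5 to lie above, or below, all of R2, R3 and R4. Of the medians of the lists other than brown fat and liver type proteins, which were not recomputed, 5 of those in the report changed sign. Cholesterol synthesis became 0.0014 with library size alone and 0.055 without L4. Cell division became 0.073 with library size alone, 0.025 at a mean of at least 5 CPM, 0.015 without R5 and 0.096 without R2. Hypoxia response became 0.023 with library size alone and 0.0054 with no filter, blood endothelium -0.062 without L4 (0.14 without R5), and distal nephron -0.36 without R5 and -0.46 without R2. The 265 higher and 22 lower genes became 137 and 8 at a mean of at least 5 CPM, 725 and 163 at 1.5-fold, 61 and 0 at 4-fold, and 59 and 3 with a gap of at least 2-fold. With library size alone, which moves the median of all genes from 0.02 to 0.11, 14 genes were lower and 323 higher; with a prior count of 0.5, 35 were lower, with 5, 10, and with no filter 39. Without 1 area, the higher genes ranged from 154 (without L4) to 496 (without R5) and the lower from 29 to 67 (without R5).

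At a mean of at least 5 CPM, the genes high in 1 area alone were 96 in L4, 1 in R2, 0 in R3 and 0 in R4, and those low alone were 0 in L4, 0 in R5, 49 in R2, 2 in R3 and 4 in R4. A prior count of 0.5 gave 14 low in L4, 1 high and 11 low in R5, and 26 low in R3; library size alone gave 1 high in R5 and 0 in R4. Genes at least 2-fold apart at a mean of at least 5 CPM were 142 (L4 and R5), 327 (L4 and R2), 384 (L4 and R3), 547 (L4 and R4), 225 (R5 and R2), 104 (R5 and R3), 134 (R5 and R4), 188 (R2 and R3), 158 (R2 and R4) and 35 (R3 and R4).

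Leaving out each area, list medians ranged from 1.39 to 3.08 (urothelium), 0.31 to 1.09 (basal and stratified epithelium), 2.27 to 4.32 (adipocyte, and 1.81 with no filter), 0.065 to 0.37 (fatty acid synthesis), 0.62 to 1.35 (smooth muscle), 0.49 to 0.99 (fibroblast and collagen matrix), -0.64 to -0.16 (proximal tubule) and -0.43 to -0.10 (oxidative phosphorylation). Genes with few counts, such as Klb, Ebf2, Fgb and Plg, are limited by depth. The cause of these changes was not tested beyond what each setting removes.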
